A study of Mus musculus with 6 samples.

Results

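Genes of stratified squamous epithelium were followed across 6 arrays of mouse gastric mucosa. The members are 35 listed genes of the basal, suprabasal and cornified layers, taken by gene symbol, and they have 55 probes among the 19057 named genes on the array. The RNA was from fundic mucosae of C57Bl/6Ncr mice, all 3 months old, with 3 wild type samples and 3 Lasp1 knockout samples, each measured on 1 Illumina bead array. Lasp1 encodes an actin-binding protein, and the comparison asked how its loss alters mRNA levels in this mucosa. How the knockout allele was made is not given in the sources used here.

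The mouse stomach has a glandular part, whose fundic glands hold acid-secreting parietal and enzyme-secreting chief cells, and a forestomach lined by a stratified squamous epithelium that cornifies at its surface. In such an epithelium basal cells divide on the basement membrane, and their daughters move outward, change their keratins, strengthen their desmosomes and finally replace the plasma membrane by a cross-linked protein envelope. The same genes serve the epidermis and the oesophagus, so they mark this kind of epithelium and not 1 organ.

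On 2 arrays, 1 of each genotype, most of these genes were above background, and some were far above it. On the other 4 arrays most members were near background, though on wild type replicate 1 18 of the 35 exceeded it. The lowest intensity deposited was 541.9, and no background had been subtracted. Background was therefore read from 26 probes of 19 Y-linked genes, since Xist, the RNA that silences an X chromosome in female cells, read 55746 to 88070 on its brightest probe on every array. The Y-linked probes had a median of 796 to 870 on each array, and their brightest read 1061 to 1212. A gene is called above background where its brightest probe exceeded every Y-linked probe on that array. By that measure 28 of the 35 genes were above background on wild type replicate 2 and 32 on knockout replicate 1, against 18 and 5 on wild type replicates 1 and 3 and 11 and 9 on knockout replicates 2 and 3. Of all probes, 44.5%, 39.4% and 35.8% passed the same measure on wild type replicates 1 to 3. On knockout replicates 1 to 3 the shares that passed it were 45.8%, 39.5% and 40.3%. Perp, Lor, Sprr1a, Sprr2f and Sfn passed it on all 6 arrays, and Dsg3, Dsg1a and Serpinb5 on none. In bulk RNA, fewer cells of a type and less RNA per cell cannot be told apart.

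**Figure D1:**
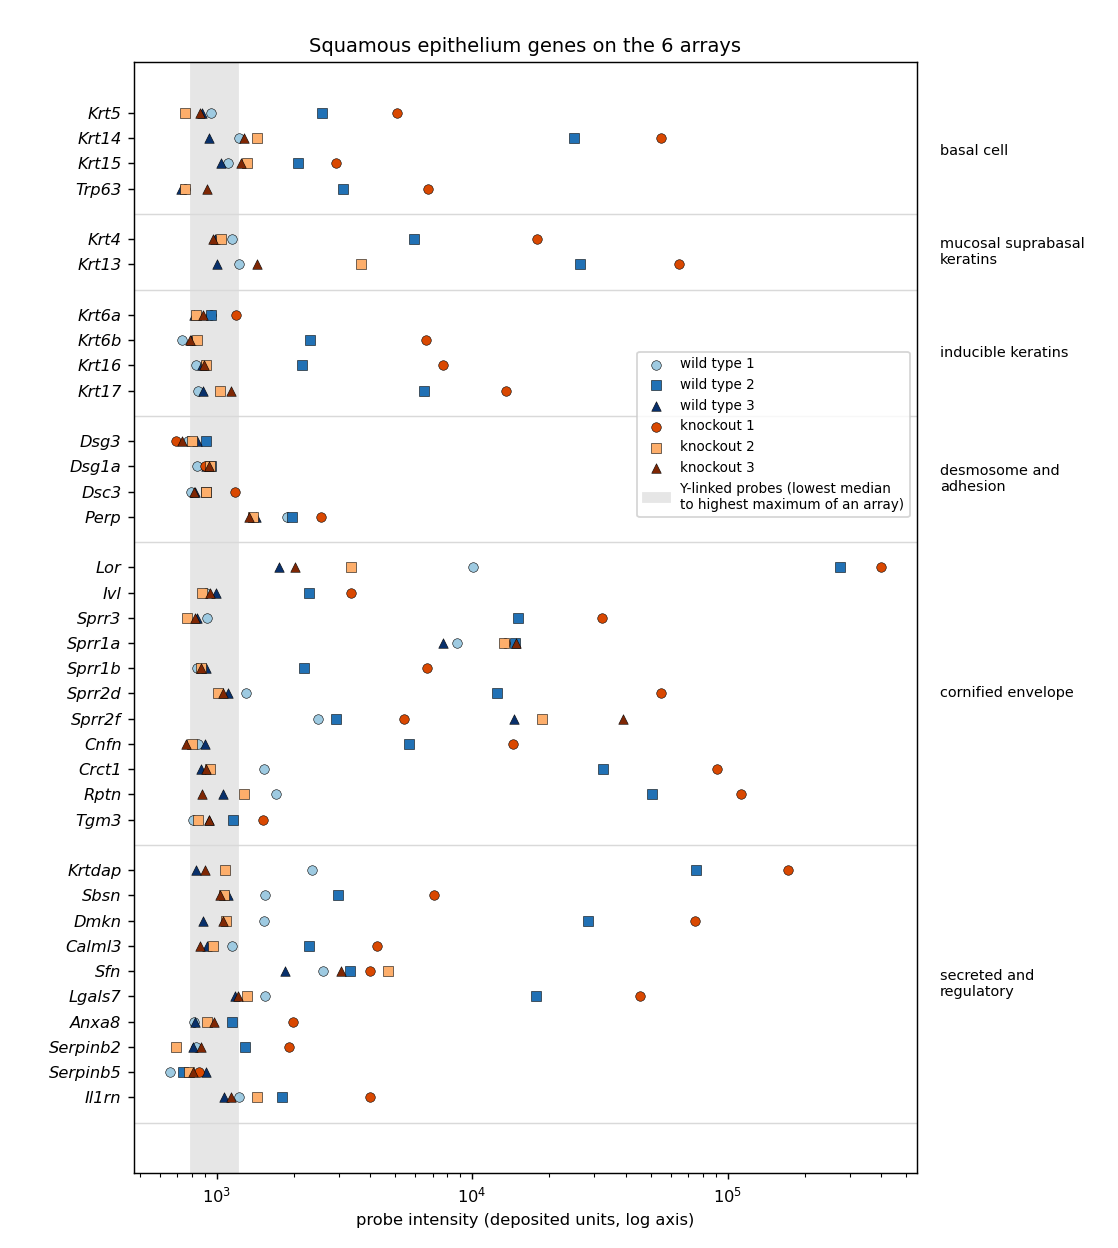
Intensity of the brightest probe of each of the 35 squamous epithelium genes on the 6 arrays (deposited units, log axis), grouped by layer, with the range of Y-linked probes in grey. Wild type replicate 2 and knockout replicate 1 stand to the right in most rows, and Sprr1a, Sprr2f and Sfn do not follow that order.

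The targeted gene was lower in every knockout sample than in any wild type sample. The brightest Lasp1 probe read 177315 to 275068 on the wild type arrays and 88521 to 111002 on the knockout arrays. Summed intensities of 9 parietal cell genes were 1428486 to 1661463, of 6 chief cell genes 1406950 to 1714240 and of 6 pit and neck cell genes 1516229 to 1828935. Probes near the top of the intensity scale carry these sums, and single dimmer genes of the gland varied, with log2 ranges over the arrays of 1.14 for Kcne2, 1.37 for Aqp4 and 1.87 for Gkn3. The same sum over the 35 squamous genes was 58484, 631172 and 54924 in wild type replicates 1 to 3 and 1236834, 73539 and 89077 on knockout replicates 1 to 3. Sprr1a and Sprr2f carried much of it on knockout replicate 2 (13353 and 18751) and knockout replicate 3 (14883 and 38836). Neither gene shared the order of arrays of most members, so the sums do not rank the 4 lower arrays for most members.

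Basal cell genes were the first layer. Krt5, which pairs with Krt14 in the keratin filaments of basal cells, read 954, 2575 and 880 in wild type replicates 1 to 3 and 5094, 755 and 864 on knockout replicates 1 to 3. Krt14 read 1227, 24984 and 937 in wild type and 54786, 1436 and 1279 in knockout mucosa. Each genotype thus held 1 high array. On the remaining arrays the knockout values were below the wild type values for Krt5 and above them for Krt14. These Krt5 values, and Krt14 on wild type replicate 3, lay under the brightest Y-linked probe of their arrays. No direction is read from them. Krt15, a further basal keratin, read 1111, 2074 and 1040 in wild type and 2941, 1318 and 1243 in knockout samples. Trp63, which encodes the transcription factor p63 that stratified epithelia require, read 749, 3125 and 725 in wild type and 6725, 753 and 919 in knockout mucosa. A second Trp63 probe stayed between 827 and 980 on all 6 arrays and did not follow the first. All 4 basal genes were highest on knockout replicate 1 and next on wild type replicate 2.

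Krt4 and Krt13 form the keratin pair of suprabasal cells in mucosal, as opposed to epidermal, squamous epithelia. Krt4 read 1148, 5949 and 990 in wild type replicates 1 to 3 and 17962, 1043 and 968 on knockout replicates 1 to 3. Krt13 read 1222, 26492 and 1002 in wild type and 64696, 3687 and 1436 in knockout mucosa. Krt13 on knockout replicate 2, at 3687, was above that array's brightest Y-linked probe of 1202, whereas Krt4 on the same array was not. A second, dim Krt13 probe read 767, 1174 and 779 and 2147, 874 and 765 in the same order, with no such rise on knockout replicate 2.

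The inducible keratins are made by squamous cells after injury and in hair follicles. Krt6b read 730, 2311 and 796 in wild type and 6609, 841 and 787 in knockout samples. Krt16, its usual partner, read 830, 2160 and 877 in wild type and 7678, 913 and 895 in knockout samples. Krt17 read 849, 6491 and 887 in wild type and 13543, 1032 and 1141 in knockout samples. These 3 genes were above background on the same 2 arrays and on no other. Krt6a, a close paralog of Krt6b, read 819 to 953 in wild type and 829 to 1192 in knockout mucosa, above background on knockout replicate 1 alone. The sequences of these probes were not used here, so cross-reading between the 2 paralogs was not tested.

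Of the 4 desmosome and adhesion members, 3 were at or near background on most arrays. Dsg3, the desmoglein of deep squamous layers, read 776 to 909 in wild type and 694 to 801 in knockout mucosa, with its only probe annotated to a cDNA clone. Dsg1a, the desmoglein of the upper layers, read 841 to 953 and 898 to 940. Dsc3, a desmocollin, read 793 to 910 and 813 to 1177, above background on knockout replicate 1 alone. Perp, a membrane protein of desmosomes and a p63 target, read 1891, 1976 and 1433 in wild type and 2559, 1387 and 1337 in knockout samples. Perp was thus above background on every array, with far less spread between arrays than Krt5 or Krt14. Other genes of the desmosome and cell border, outside the members and named after their values were seen, were high on the 2 arrays: on wild type replicate 2 and knockout replicate 1 Pkp1, a plakophilin, read 5286 and 13464, Ppl, periplakin, 8962 and 18843, and Cdsn, corneodesmosin, 10111 and 30513. Jup, plakoglobin, and Pkp3, a further plakophilin, were not: they read 1540 to 3009 and 4973 to 9373 over the 6 arrays.

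Lor encodes loricrin, the main envelope protein of keratinising epithelia. Lor read 10048, 274920 and 1759 in wild type replicates 1 to 3 and 399114, 3355 and 2027 on knockout replicates 1 to 3, above background on every array. On wild type replicate 2 it was 27.4-fold and on knockout replicate 1 39.7-fold above the highest of the other 4. Ivl, the early envelope scaffold involucrin, read 912, 2294 and 993 in wild type and 3371, 878 and 943 in knockout mucosa. Crct1, a small cysteine-rich envelope protein gene, read 1534, 32607 and 868 in wild type and 91088, 941 and 911 in knockout mucosa. Rptn, the filament-binding repetin, read 1712, 50432 and 1055 in wild type and 112686, 1285 and 875 in knockout mucosa. In each of these the same 2 arrays stood apart from the other 4. Cnfn, the envelope protein cornifelin, read 848, 5640 and 898 and 14404, 804 and 761. Tgm3, a transglutaminase that cross-links envelope proteins, read 807, 1160 and 932 and 1521, 845 and 937, above background on knockout replicate 1 alone.

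The small proline-rich (Sprr) genes, whose products bridge other envelope proteins, did not share 1 pattern. Sprr3, typical of mucosal epithelia, read 914, 15056 and 839 in wild type replicates 1 to 3 and 32200, 768 and 822 on knockout replicates 1 to 3. Sprr1b read 841, 2189 and 907 in wild type and 6685, 869 and 869 in knockout mucosa. Sprr2d read 1302, 12554 and 1112 in wild type and 54640, 1013 and 1058 in knockout mucosa. These 3 followed the keratins. Sprr1a and Sprr2f, singled out after their values were seen, did not. Sprr1a was far above background on every array, at 8708, 14657 and 7691 in wild type and 13437, 13353 and 14883 in knockout samples. Sprr2f read 2502, 2942 and 14526 in wild type and 5419, 18751 and 38836 in knockout samples. Its 3 higher values were on arrays where Sprr3, Sprr1b and Sprr2d lay at background, and its 3 lower values included both arrays where they were high. Sprr2 paralogs are close in sequence, and the probe sequences were not used here, so cross-reading within the family was not tested.

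**Figure D2:**
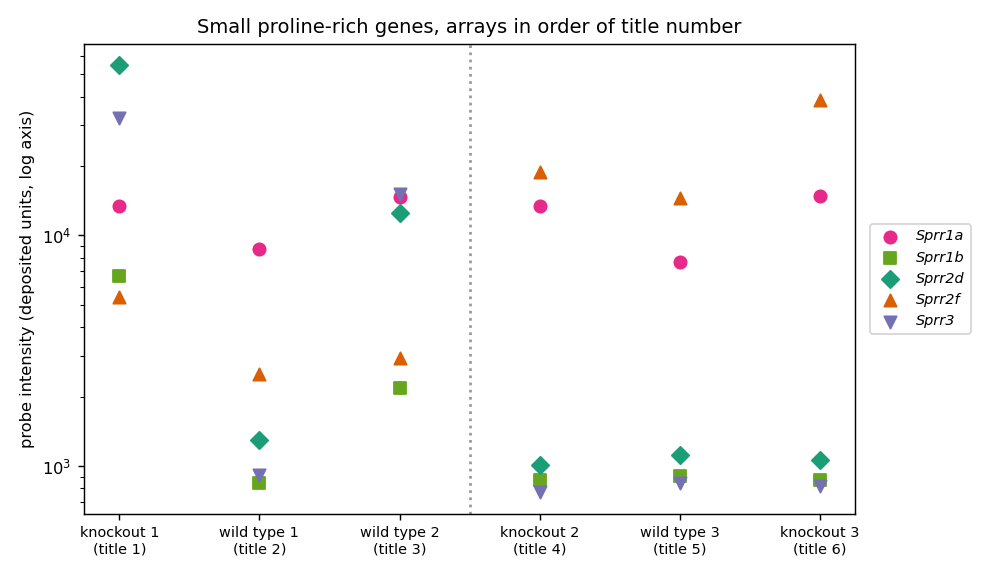
Intensity of the brightest probe of 5 Sprr genes (deposited units, log axis), with the 6 arrays in order of the number in their titles and a dotted line between numbers 3 and 4. Sprr3, Sprr1b and Sprr2d peak on knockout replicate 1 and wild type replicate 2, Sprr1a stays within 7691 to 14883, and Sprr2f is high on the arrays numbered 4 to 6.

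Of the 35 members, 9 lie on chromosome 3, in the cluster of envelope genes known as the epidermal differentiation complex. The promoter sequences of 4 of them are shown because the pairs Sprr2d with Sprr2f and Sprr1b with Sprr1a are close paralogs in that cluster that differed in their order over arrays. Each is the 250 bases before the start site from RefSeq, build GRCm38.p6, 5′ to 3′ on the gene's strand: chr3:92338890-92339139 (plus) for Sprr2d, chr3:92364937-92365186 (plus) for Sprr2f, chr3:92438780-92439029 (minus) for Sprr1b and chr3:92485882-92486131 (minus) for Sprr1a. Capitals mark the AP-1 motif TGAGTCA, on either strand, and the TATA box TATAAA, on either strand.
Sprr2d: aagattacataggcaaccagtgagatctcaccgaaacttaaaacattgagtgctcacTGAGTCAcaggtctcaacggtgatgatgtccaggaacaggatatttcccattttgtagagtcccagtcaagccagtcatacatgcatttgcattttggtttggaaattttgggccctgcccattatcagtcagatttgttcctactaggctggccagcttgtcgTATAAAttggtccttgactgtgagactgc
Sprr2f: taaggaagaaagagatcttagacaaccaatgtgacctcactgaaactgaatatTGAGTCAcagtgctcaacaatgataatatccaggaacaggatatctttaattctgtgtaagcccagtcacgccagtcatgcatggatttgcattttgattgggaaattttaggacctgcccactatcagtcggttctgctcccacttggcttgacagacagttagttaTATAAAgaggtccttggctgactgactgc
Sprr1b: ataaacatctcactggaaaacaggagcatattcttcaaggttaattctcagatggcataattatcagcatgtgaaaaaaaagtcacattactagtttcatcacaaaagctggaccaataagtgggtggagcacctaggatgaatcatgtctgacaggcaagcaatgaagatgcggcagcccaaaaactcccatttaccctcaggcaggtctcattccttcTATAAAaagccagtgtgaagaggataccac
Sprr1a: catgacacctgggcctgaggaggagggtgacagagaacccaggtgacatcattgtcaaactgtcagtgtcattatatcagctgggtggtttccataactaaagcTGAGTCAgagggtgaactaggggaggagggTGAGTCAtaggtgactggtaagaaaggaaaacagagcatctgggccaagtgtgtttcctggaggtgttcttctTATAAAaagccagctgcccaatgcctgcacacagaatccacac
Sprr2d and Sprr2f start 26047 bases apart, and 184 of the 237 aligned bases were identical (77.6%). Sprr1a and Sprr1b start 47102 bases apart, and 142 of the 228 aligned bases were identical (62.3%). Across the pairs, Sprr2d with Sprr1b had 59.3% and Sprr2f with Sprr1a 61.1%, so only Sprr2d with Sprr2f stood out. Sprr2d and Sprr2f each held 1 AP-1 motif, starting 193 and 197 bases before the start site, and 1 TATA box at 29 bases in both. Sprr1a held 2 AP-1 motifs, at 146 and 116 bases, and Sprr1b had none of these letters in this window. Promoters were found for 22 of the 35 members, with 28 promoters in all. TGAGTCA was present in 11 of those 28 promoters (39.3%), from 9 genes, and in 4.46% of all 32851 promoters. TATAAA was present in 12 of the 28 (42.9%) and in 12.4% of all. The Grainyhead-like motif AACCGGTT was in none of the 28 and in 0.116% of all promoters. The letters GGTCA, one arm of an oestrogen response element, were in 39.3% of member promoters and 35.2% of all. The full oestrogen response element, which contains that arm, was in none of the 28 and in 0.0639% of all. Matches on both strands were counted, and they describe the letters only.

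Secreted and regulatory genes formed the last group. Krtdap, which encodes a secreted peptide of differentiating keratinocytes, read 2369, 75038 and 829 in wild type replicates 1 to 3 and 172111, 1083 and 898 on knockout replicates 1 to 3. Dmkn, the secreted protein dermokine, read 1535, 28472 and 887 in wild type and 74263, 1089 and 1061 in knockout mucosa. Sbsn, the secreted protein suprabasin, read 1551, 2977 and 1108 and 7073, 1071 and 1032. On the brightest probe of these 3 genes wild type replicate 1 came next after the 2 high arrays, above background while wild type replicate 3 was not. Further probes of Krtdap and Dmkn, at 1480 and 1478 on wild type replicate 1, were above background there too. The further Sbsn probes, at 802 and 1011, and another Dmkn probe, at 1014, were not. Lgals7, the squamous lectin galectin-7, read 1546, 17767 and 1178 in wild type and 45281, 1315 and 1213 in knockout mucosa. Calml3, a calmodulin-like protein of stratified epithelia, read 1153, 2293 and 920 and 4232, 965 and 860. Anxa8, a membrane-binding annexin, read 814, 1150 and 823 and 1983, 918 and 973. Each of these was again highest on knockout replicate 1 and next on wild type replicate 2.

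Serpinb2, the plasminogen activator inhibitor of squamous cells, read 833, 1297 and 811 in wild type and 1924, 694 and 872 in knockout mucosa. Il1rn, the antagonist of the interleukin-1 receptor, read 1227, 1807 and 1065 and 4002, 1439 and 1141, and its 3 further probes were above background on no array. Serpinb5, the serpin maspin, read 655 to 912 in wild type and 777 to 856 in knockout mucosa. Sfn, the adaptor protein 14-3-3 sigma, read 2605, 3321 and 1859 in wild type and 3989, 4679 and 3057 in knockout samples. Sfn was thus well above background on all arrays on this probe, with the highest value on knockout replicate 2, and the groups overlapped. A second Sfn probe read 824 to 967 and was above background on no array.

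The order of arrays was shared by most members. Knockout replicate 1 was highest and wild type replicate 2 second for 28 of the 35 genes. The exceptions were Dsg3, Dsg1a, Dsc3 and Serpinb5, which were at or near background, and Sprr1a, Sprr2f and Sfn. Dim probes were left out of further tests where their mean log2 intensity did not exceed that of the median probe, which kept 30 of the 35 genes, some of them through the 2 high arrays alone. Krt6a, Dsg3, Dsg1a, Dsc3 and Serpinb5 did not pass. Serpinb2, with a geometric mean of 1003, stood just above that limit of 991, and Krt6a, with 930, just below. Of the 30 genes, 27 (90.0%) had this order of arrays, against 1109 of all 22640 probes kept (4.9%). The members were listed with this pattern in view, so these shares describe it and do not test it. Within 1 genotype the log2 range exceeded 2 for 21 of the 30 genes (70.0%), against 1.41% of all probes. Members were listed for 1 high array in each genotype, so this share too restates that choice and tests nothing.

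On the remaining 4 arrays some of these genes were above background at low levels. For the 13 genes with that order of arrays that read more than 10 times the brightest Y-linked probe on knockout replicate 1, the median Y-linked signal was subtracted and each level set against knockout replicate 1. Wild type replicate 2 then had a median of 40.2% of that level, from 21.8% for Sprr2d to 68.8% for Lor. For Lor, compression near the top of the intensity scale was not tested. Wild type replicate 1, with 10 of the 13 genes above background, had a median of 0.815%, with Lor highest at 2.32%. On the other 3 arrays most of the 13 were not above background, so no median is given. Knockout replicate 2 had 5 genes above it, among them Krt13 at 4.48% and Krt14 at 1.14%. Knockout replicate 3 had 4, among them Krt13 at 0.901% and Krt14 at 0.777%. Wild type replicate 3 had Lor alone, at 0.223%.

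The 2 high arrays did not differ by 1 common factor. Over the 28 genes above background on both, knockout replicate 1 over wild type replicate 2 had a median ratio of 2.38 after the subtraction of background, from 0.913 for Sprr1a to 5.10 for Krt16. Basal genes had a median of 2.33, from 1.70 for Krt15 to 2.56 for Trp63. Krt13 and Krt4 stood at 2.49 and 3.34. The inducible keratins were spread widely, with 2.24 for Krt17, 3.87 for Krt6b and 5.10 for Krt16. Among envelope genes Lor had 1.45 and Ivl 1.74, Sprr3 2.20 and Crct1 2.84, and Sprr1b and Sprr2d 4.27 and 4.59. Lor read 274920 on wild type replicate 2 and 399114 on knockout replicate 1, where the brightest probes read 576175 and 546550. Whether bright readings were compressed near the top of the intensity scale was not tested. Secreted and regulatory genes had a median of 2.47, from 1.27 for Sfn to 3.22 for Il1rn. The SD of the log2 ratio was 0.55 between the 28 genes and 0.13 between probes of 1 gene (8 genes with 19 probes). The 2 SDs cover unlike sets, as Sprr1a, Sfn, Lor, Sprr1b, Sprr2d and Krt16 were not among the 8 genes. Spread between probes is therefore not known for the genes with the most extreme ratios. Each condition has 1 such array, so this compares 2 arrays and not the genotypes, and it has no test.

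**Figure D3:**
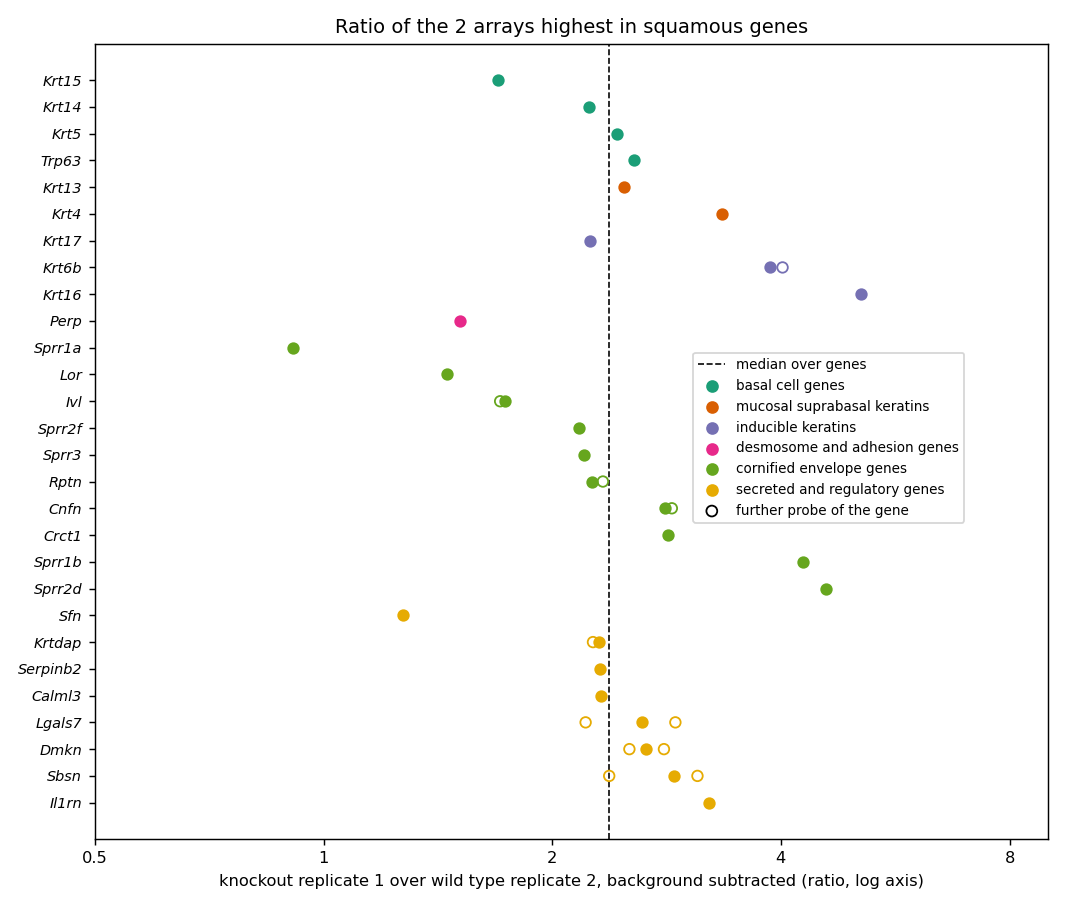
Ratio of knockout replicate 1 to wild type replicate 2 for the 28 squamous genes above background on both arrays, after subtracting each array's median Y-linked probe (log axis). Filled points are the brightest probe of a gene, open points its further probes, and the dashed line is the median of 2.38; Krt16, Sprr2d and Sprr1b lie furthest right and Sprr1a furthest left.

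No squamous gene differed between the genotypes by the test used, limma on log2 intensity with Benjamini-Hochberg adjustment over all 22640 probes. It called 0 of the 30 members, where it called 2 probes of the whole array (0.00883%). One member, Sfn, had an unadjusted p under 0.05, against 392 of all probes. The lowest adjusted p of any member over the 14 other settings tried was 0.399. No member had all knockout arrays above or all below the wild type arrays, against 6.17% and 1.02% of all probes. Of the 30 members 28 were higher and 2 lower in the knockout mean, with a median log2 difference of 0.38. Over all probes that median was 0.10, and 0.0030 after quantile normalization. The member median rested on single arrays. Leaving out knockout replicate 1, 2 or 3 gave -0.54, 1.04 or 1.08, and leaving out wild type replicate 1, 2 or 3 gave 0.060, 1.15 or -0.015. Without both high arrays it was -0.072. Since the labels do not say that samples came from separate mice, the p-values may reflect technical spread, and 3 arrays a group limit the precision.

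The knockout minus wild type log2 differences follow by layer. Most were smaller than their standard errors, and Il1rn, Anxa8, Sfn, Sprr1a and Sprr2f exceeded theirs. Krt5 differed by 0.21 (SE 0.78), Krt14 by 0.60 (SE 1.78) and Trp63 by 0.48 (SE 0.94). Krt4 differed by 0.47 (SE 1.23), Krt13 by 1.13 (SE 1.72) and Krt17 by 0.57 (SE 1.19). The sign of each of these 6 differences changed with the array left out, so no direction can be given. Perp differed by -0.06 (SE 0.28), Lor by -0.28 (SE 2.47), Ivl by 0.14 (SE 0.59), Sprr3 by 0.27 (SE 1.71) and Tgm3 by 0.16 (SE 0.25). Krtdap differed by 0.06 (SE 2.41) and Il1rn by 0.49 (SE 0.47), and these 7 too changed sign with an array left out. The adjusted p from limma was 0.994 to 0.999 for all 30 members. Krt6a and Dsg3 were too dim to be tested. Background was not subtracted, so differences of dim probes are understated.

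The members that kept their sign with each array left out in turn were, among those examined singly, Sfn, Sprr1a and Sprr2f. Sfn averaged 2595 ± 731 in wild type samples and 3909 ± 814 in knockouts (SD, n = 3 each), which differ by 0.61 in log2 (SE 0.25, limma unadjusted p = 0.0467, adjusted p = 0.994). Sprr1a was 10350 ± 3763 and 13890 ± 860 (n = 3 each), a difference of 0.48 (SE 0.24, limma adjusted p = 0.994). Sprr2f was 6657 ± 6819 and 21000 ± 16820 (n = 3 each), a difference of 1.74 (SE 0.89, limma adjusted p = 0.994). In all 3 genes the highest wild type array exceeded the lowest knockout array, so none can be called changed. Without both high arrays the differences were 0.78 for Sfn, 0.78 for Sprr1a and 2.16 for Sprr2f, with a limma adjusted p of 0.9999 for each.

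**Figure D4:**
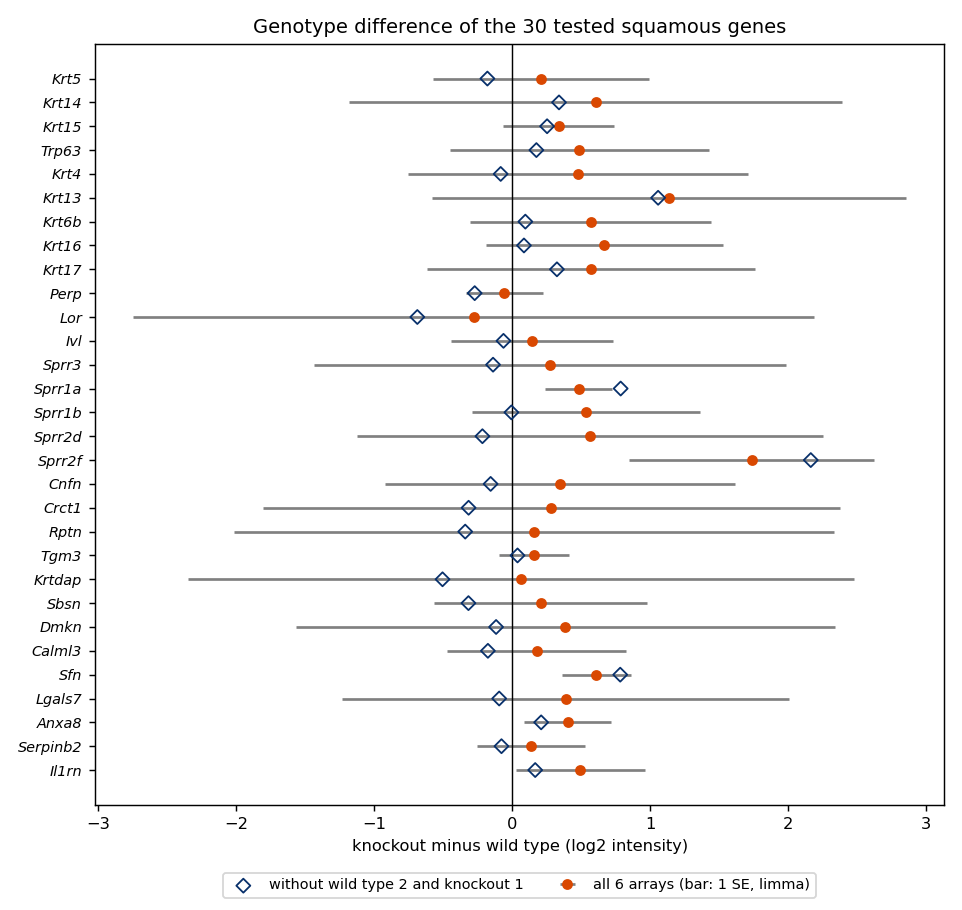
Knockout minus wild type difference in log2 intensity for the 30 tested squamous genes, as filled points with 1 SE from limma over 6 arrays and as open points without wild type replicate 2 and knockout replicate 1. The bars of Sprr1a, Sprr2f, Sfn, Anxa8 and Il1rn do not cross 0, and no gene passed the test.

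The array titles carry a running number that crosses the genotypes, with 1 to 3 on knockout replicate 1 and wild type replicates 1 and 2, and 4 to 6 on knockout replicate 2, wild type replicate 3 and knockout replicate 3. The labels do not say what it means. Both arrays high in squamous genes have numbers 1 to 3, so for most members the number and those 2 arrays cannot be told apart. With the genotype in the limma model, 29 of the 30 members were lower on numbers 4 to 6. Their median log2 difference was -1.86, against -0.18 over all probes. No member passed as lower, where 0.68% of all probes did. In the same limma fit 27 members had an unadjusted p under 0.05, against 6386 of all 22640 probes, in either direction. The members were listed for the 2 high arrays, both in the first set, so their lower values on numbers 4 to 6 restate that choice. One member, Sprr2f, passed as higher, where 0.0442% of all probes did. Sprr2f was 3621 ± 1573 on numbers 1 to 3 and 24040 ± 12990 on numbers 4 to 6 (SD, n = 3 each), with every array of the second set above every array of the first. The log2 difference was 2.37 (SE 0.27, 5.16-fold, limma adjusted p = 0.0282). That call ended without wild type replicate 2 (log2 2.41, limma adjusted p = 0.0937) and without knockout replicate 3 (log2 2.15, limma adjusted p = 0.067), with differences of like size. Without wild type replicate 1 the first set held only the 2 high arrays, and 22 members then passed the threshold, which the same choice fixes in part. Without wild type replicate 3, 7 passed. The share of all probes passing in these fits is not given here, so these counts are not read as particular to the members. Within numbers 1 to 3 the knockout array exceeded the mean of the wild type arrays by 0.998 on the log2 scale for Sprr2f, and within numbers 4 to 6 the knockout arrays exceeded the wild type array by 0.89. Each of these rests on 1 array of a genotype.

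Further genes of stratified epithelium were taken from a list of 60, of which 55 had a probe and 46 passed the filter. None of the 46 was called for genotype. The order with knockout replicate 1 first and wild type replicate 2 second held for 29 of them, and 25 of those gave a background-subtracted ratio of the 2 arrays, with a median of 2.83 (1.26 to 7.35). Krt10, the keratin of cornifying suprabasal cells, read 13723, 241643 and 6357 in wild type replicates 1 to 3 and 439721, 8644 and 9353 on knockout replicates 1 to 3. Lce3b, Lce3c and Lce3f, late envelope genes of the same chromosome 3 cluster, read 27749, 18712 and 25218 on wild type replicate 2 and 67901, 49919 and 59025 on knockout replicate 1, against 817 to 1359 on the other arrays. These 4 genes had the widest range of the list, and other genes of it did not follow: Flg2 and Sprr4 were above background on no array, and Sprr2a1 read 96816 to 134852. Of this list 1 gene, Ly6g6c, passed the test by title number and is named for that (log2 -1.57, limma adjusted p = 0.0282).

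The 15 other genes whose profile was most like the members were ranked among 11838 named genes by the root mean square difference of log2 profiles over the 6 arrays. Serpinb11 came first (0.0915), then Cyp2f2, Il1f6, Scel, Hopx, Klk7, Klk10, Alox12b, Sprr2i, Tmem45a2, Lce3a, Serpinb3c, Slurp2, Hspb1 and Gjb6 (0.22). Of these Sprr2i, Lce3a and Gjb6 were in the list of 60. Serpinb11 read 765, 2490 and 823 in wild type and 6330, 783 and 688 in knockout samples. Cyp2f2, a cytochrome P450, read 902, 3080 and 989 and 8699, 1188 and 1046. All 15 had knockout replicate 1 first and wild type replicate 2 second, as the choice by likeness fixes.

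Other tissues were read from marker lists. Of 15 hair shaft and inner root sheath genes with a probe, 14 were above background on no array, and their summed intensity was 12664 to 13722 on every array. Of 10 skeletal muscle genes, 8 were above background on no array. Smooth muscle genes summed to 289965 on knockout replicate 1 and 48503 to 128323 on the other 5 arrays. Acta2 carried much of these sums, at 169728 on knockout replicate 1 and 26433.5 to 85098 elsewhere. The myosin heavy chain gene Myh11 read 23458 on knockout replicate 1 and 1806 to 5590 elsewhere. Of that list, 2 of 10 genes were above background on no array. On wild type replicate 2, the other array high in squamous genes, the smooth muscle sum was 79009. Pancreatic acinar genes summed to 8059934 on wild type replicate 3 and 806518 to 1178435 on the others. Clps carried much of the sum on those others, at 513831 to 603537. Cela3b, with the widest range of the list, read 626235 on wild type replicate 3 and 886 to 5786 elsewhere. Wild type replicate 3 had the fewest squamous genes above background. That array also had the lowest share of all probes above background, 35.8%. The 6 fibroblast genes summed to 59807 to 99821. The part of smooth muscle and pancreatic transcripts in the squamous values was not tested.

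**Figure D5:**
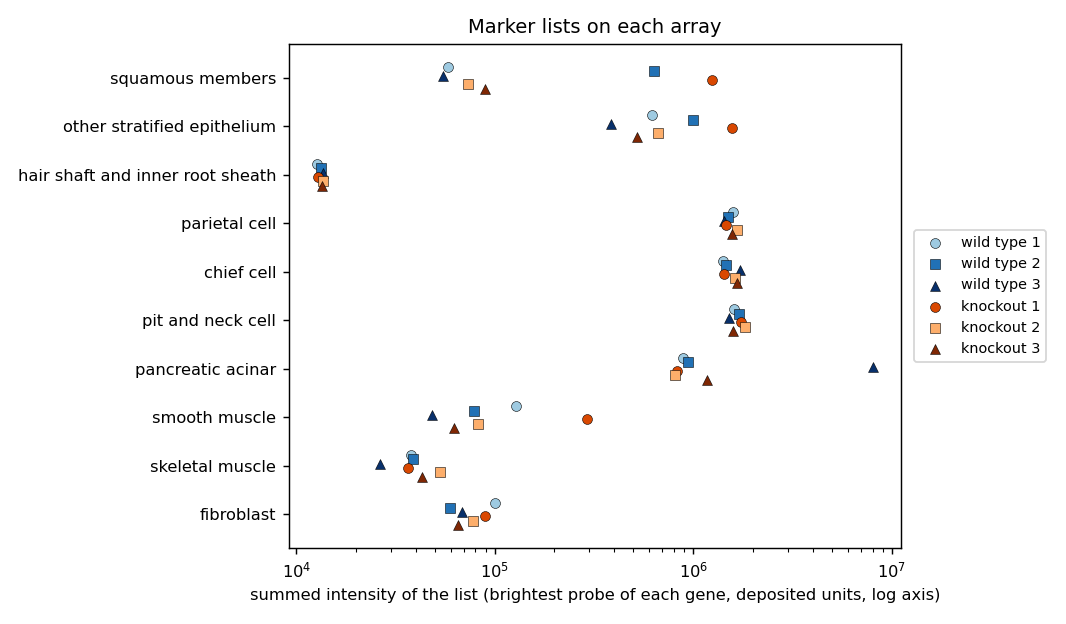
Summed intensity of the brightest probe of each gene in a list, on the 6 arrays (deposited units, log axis). The squamous members span 54924 to 1236834, the smooth muscle list is highest on knockout replicate 1 and the pancreatic list on wild type replicate 3. Bright probes carry the gland sums, and 14 of the 15 hair genes lie at background.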

How the data were processed

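Biotin-labelled cRNA from total RNA was hybridised to 1-colour bead arrays, per the labels' protocols. The values are the deposited probe intensities of 45281 probes. From the values, the authors' scaling gave every array a median of 1000, and background had not been subtracted. The sources used here do not give the scanner or its software. Probes were named from the platform annotation, updated by gene identifier to the GRCm38.p6 gene table: 34885 had 1 symbol, 18 several and 10378 none.

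Intensities were log2 transformed, and the 22640 probes whose mean log2 value exceeded that of the median probe were fitted with limma 3.58.1 (lmFit, eBayes) in R 4.3.3, two-sided, at a Benjamini-Hochberg adjusted p under 0.05. The test was checked on simulated data. The exact permutation p for 3 against 3 arrays cannot go below 0.1, so no exact test was run for single genes. A gene is given by its brightest probe, and levels of different probes are not compared. Samples were grouped by genotype from their titles. Every member is named. Log2 differences are given for 14 members of 16 fixed by rule (Krt6a and Dsg3 were too dim) and for Sprr1a and Sprr2f, and other genes by likeness of profile or width of range. The members and lists were chosen with earlier results of these data known. Alternatives were other normalizations, filters, blocks, the mean of a gene's probes and leaving out arrays. Figures used matplotlib 3.10.9 (Python 3.11.15).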

Additional observations from a re-analysis of the deposited data

How the results depend on the processing

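For the genotype comparison, the count of 0 member genes past the threshold held under all 14 alternatives: quantile normalization, normexp with quantile normalization, no filter, the brighter 25% of probes, the mean of a gene's probes, the replicate block, the title-number block, leaving out each array, and leaving out both high arrays, which was added after seeing the data. The replicate numbers did not pair the samples (correlations of deviations 0.0445, -0.299 and 0.527), and the replicate block left the count of members called at 0 and the member median at 0.38. With the title-number block the median was 1.18. Directions of single genes turned as follows. With normexp, Krt5 was -0.0507 and Krtdap -0.0327. Without both high arrays, Krt5 was -0.181, Krt4 -0.0849, Ivl -0.0647, Sprr3 -0.14 and Krtdap -0.506. With the title-number block, Perp was 0.166 and Lor 1.75. Leaving out 1 array gave ranges of -0.678 to 0.704 for Krt5, -1.18 to 2.12 for Krt14, -0.521 to 1.18 for Trp63, -0.912 to 1.30 for Krt4, -0.471 to 2.66 for Krt13, -0.645 to 1.54 for Krt17, -0.361 to 0.107 for Perp, -2.70 to 1.73 for Lor, -0.488 to 0.565 for Ivl, -1.51 to 1.64 for Sprr3, -0.103 to 0.321 for Tgm3, -2.42 to 1.98 for Krtdap and -0.0551 to 0.85 for Il1rn. The cause was not tested. For the title numbers, 1 member passed as reported and 10 passed with the brighter 25% of probes, where 12 members were tested. Leaving out 1 array gave 0 (wild type replicate 2 or knockout replicate 3) to 22 (wild type replicate 1) and 7 without wild type replicate 3. The matching shares of all probes are not given here, so these counts are not read as particular to the members. Signal near background limits what dim members such as Dsg3, Dsg1a, Dsc3, Krt6a and Serpinb5 can show.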

Other observations

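Some genes of the other lists had values of their own. Tnni2, a fast troponin gene of skeletal muscle, read 29499, 30023 and 17206 in wild type replicates 1 to 3 and 27620, 43877 and 33652 on knockout replicates 1 to 3, while 8 of the 10 genes of its list were above background on no array. Among fibroblast genes, Pdgfra, a growth factor receptor, read 13254, 7058 and 3622 and 10001, 7358 and 4081. Gkn3, a gastrokine gene of neck cells, read 69986, 47860 and 21824 and 79601, 61971 and 23398. Each was tested for genotype with limma and did not pass.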
